A study of Mus musculus with 18 samples.

Results

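The livers of male CD-1 mice fed a high dose of bisphenol A were compared with those of mice on the same diet without it. CD-1 is an outbred stock, so the mice are not genetically identical. The arrays were chosen by their titles, 6 of the high dose (5000 µg/kg/day) and 6 of the control group (0 µg), which is 12 of the 18 arrays of the study. The other 6, from mice given 50 µg per kg per day, entered the model for the spread between mice and are otherwise named only where a difference from them was tested. All groups shared strain, sex, age, diet and the 28 days of feeding: the diet started at 5 weeks of age, and RNA was taken at 9 weeks. The powdered diet held 49% starch and 24.4% sucrose, food was freely available, and the dose was set from an assumed food intake rather than measured in each animal. Neither the hour of killing nor a fasting period is given in the labels. RNA from a fragment of the large liver lobe of each mouse was labelled with Cy3 and hybridised to a 1-colour Agilent array, 1 mouse per array.

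Bisphenol A is a monomer of polycarbonate plastics and epoxy resins. It binds estrogen receptors weakly, and the liver clears it mainly by coupling it to glucuronic acid or sulfate. Liver is a tissue in which many genes follow the circadian clock, a loop in which Clock and Bmal1 switch on their own repressors, the Per and Cry proteins, while the Rev-erb receptors repress Bmal1. Bulk liver RNA is mostly from hepatocytes, with smaller amounts from Kupffer cells, endothelium, stellate cells and lymphocytes, and in such RNA fewer cells of a type and less RNA per cell cannot be told apart.

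A level here is a probe's log2 intensity after the 75th percentile of its array was subtracted, so that 0 is the level of that percentile, and a difference of 1 between groups is a doubling. Each gene was read from its brightest probe. Before scaling, the 75th percentile was 230.1 ± 43.1 in controls and 291.8 ± 34.1 at the high dose (SD, n = 6 each), a difference of 0.36 on the log2 scale (2-sided exact permutation p = 0.0173). Of 15 hepatocyte markers 14 were measured, and their summed level reached from 10.84 to 11.43 in controls and from 10.72 to 11.14 at the high dose (3 of 14 higher, median log2 fold change -0.25, with 7 on saturated probes). High-dose mouse 2 stood apart. It held the highest or lowest of the 12 values for 31.1% of genes, against 10.1% to 21.9% for each of the other 11 mice, and its median correlation with them was 0.963, against 0.974 to 0.979 for the others. Results that rest on this mouse are given with and without it. The arrays lay on 5 slides, of which 4 held both groups. High-dose mouse 4 lay on the slide without controls and does not enter differences within slides. Slide 5 held only control mouse 2 and high-dose mouse 2 of these groups. Where the groups do not overlap, the sign within each slide follows from that and adds nothing. Controls were at positions 1 and 4 of a slide and high-dose mice at positions 2, 3 and 4, so position and group cannot be fully told apart.

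The comparison asked which liver genes differ after 28 days of the high dose. None of the 17677 genes passed the threshold of an adjusted p of 0.05 (limma, Benjamini-Hochberg), and the smallest adjusted p was 0.126. The data hold differences in size without that support. At an unadjusted p under 0.05 there were 1233 genes, or 6.98% of those tested, against 884 that the threshold alone would give. Of these, 539 (3.05%) were higher and 694 (3.93%) lower at the high dose, so that 43.7% were higher. That split depended on the background and on brightness: with normexp background correction there were 147 such genes, 74.8% of them higher, and with array brightness in the model 727, of which 53.8% were higher. With unsaturated probes only, 536 were higher and 629 lower. All 6 high-dose mice lay above all 6 controls for 21 genes (0.119%) and below them for 37 (0.209%). A log2 fold change over 1 was seen for 109 genes (0.617%) and one under -1 for 43 (0.243%). The largest differences were more often upward, while small ones with low p were more often downward. The number of large ones depended on the filter for dim probes and on the background. In either direction 152 genes were past a log2 fold change of 1. This became 58 among probes well above background on all arrays and 33 with normexp. A dim probe could pass the filter through the group where it was high, and its part in the upward share was not tested.

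**Figure D1:**
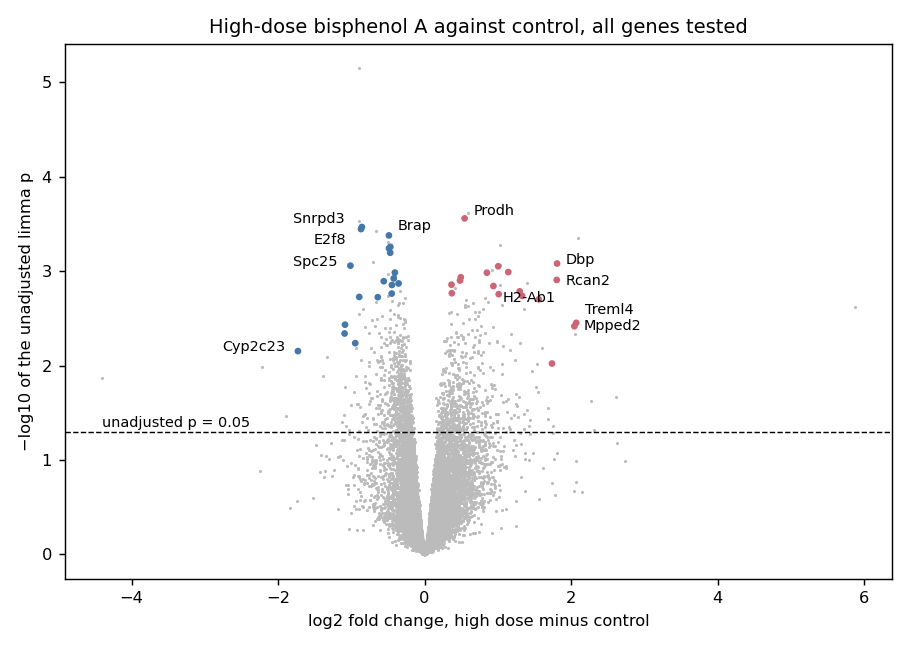
Log2 fold change (x axis, high dose minus control) against −log10 of the unadjusted limma p (y axis), 1 point per gene. Red and blue points are genes named for the smallest p or the largest change, higher and lower at the high dose. Dbp stands at 1.81 and Snrpd3 at -0.86, and no gene passed the threshold after adjustment.

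Intervals show what 6 against 6 mice could leave undetected. Standard errors of the fold changes (log2) had a median of 0.17, and the median 95% interval reached 0.35 to each side. For 83.9% of genes the whole interval lay between -1 and 1, so that for these a log2 fold change of 1 in either direction lay outside it. The median size of a fold change was 0.13 and its 95th percentile 0.58. The spread was a little larger among dosed mice. The median SD of a gene was 0.25 in controls and 0.29 at the high dose, a median ratio of 1.13, which was 1.03 without high-dose mouse 2.

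The gene with the smallest limma adjusted p (0.126) is not named here. Among genes with a regular symbol, those with the smallest p and higher at the high dose belonged to different processes. Prodh, the mitochondrial proline dehydrogenase that opens proline breakdown, led them. Its levels in controls were 4.25 at the lowest, 4.58 at the median and 4.72 at the highest, and at the high dose 4.85, 4.99 and 5.51. The groups did not overlap. The log2 fold change was 0.55 ± 0.12 (SE), or 1.46-fold, with a limma adjusted p of 0.641, and within the 4 slides it ran from 0.31 to 0.86. The Prodh probe lies at chr16:17985361-17985420 of mouse build mm8. Fam241b was the other gene of this group, beside Dbp, without overlap between the groups. It reached from -1.91 to -0.96 in controls (median -1.11) and from -0.89 to 0.28 at the high dose (median -0.56).

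Rcan2, a regulator of calcineurin, had one of the larger differences. Its levels were -3.65, -2.90 and -1.73 (lowest, median, highest) in controls and -1.95, -0.93 and -0.13 at the high dose. In 5 of 6 high-dose mice it exceeded all controls. Rcan2 differed by 1.80 ± 0.47 (SE), and a further probe of the gene gave 1.11. Within slides it ran from 0.17 to 3.19, so the slides were far from even. Calhm6, of the calcium homeostasis modulator family, was 1.01 higher and Nme4, a mitochondrial nucleoside diphosphate kinase, 0.49 higher. For Calhm6 4 of 6, and for Nme4 5 of 6, high-dose mice lay above all controls. Smaller differences were those of Lynx1 (0.48), a modulator of nicotinic receptors, Fgfr1op2 (0.37) and Ppip5k1 (0.37), an inositol pyrophosphate kinase. Chic1 (1.01), Clip4 (1.30), Zfp324 (1.33) and DXBay18 (1.56) had larger differences. The DXBay18 probe was well above background on 2 of 6 control arrays and on all 6 high-dose arrays. Hivep3, a zinc finger factor, was not well above background on any control array and was so on 5 of 6 high-dose arrays. Such a probe could pass the filter through the group where it was high. Each control array was given its lowest signal well above background, or the Hivep3 signal where higher. Against these the high-dose mean was 1.26-fold. That value holds for this background only, since the direction of Hivep3 turned under normexp. Its measured means were -5.71 and -4.56, with a limma adjusted p of 0.641. The dimmer genes of this set depended on the background: under normexp, which raises low signals, Rcan2 stood at 0.67, Clip4 at 0.23, Calhm6 at 0.16, DXBay18 at 0.14, Zfp324 and Lynx1 at 0.05 and Hivep3 at -0.08. Prodh (0.68) and Dbp (1.78) did not shrink in this way.

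Among the largest differences at an unadjusted p under 0.01, Treml4, a receptor of myeloid cells, led the genes with a regular symbol. Its levels were -3.07, -1.58 and 0.47 in controls and -0.24, 0.10 and 2.00 at the high dose. The groups overlapped, with 2 of 6 high-dose mice above all controls. Treml4 differed by 2.07 ± 0.61 (SE), or 1.78 without high-dose mouse 2, and it ran from -0.37 to 4.22 within slides. Mpped2, a metallophosphoesterase, differed by 2.04 on a probe well above background on 1 of 6 control and 5 of 6 high-dose arrays, and its further probe gave 1.67. Under normexp Mpped2 stood at 0.24 and Treml4 at 1.17. Smpd3, the neutral sphingomyelinase that makes ceramide, had levels of -3.67 to -0.67 in controls (median -1.52) and -1.62 to 1.81 at the high dose (median -0.41). It exceeded all controls in 5 of 6 mice, and its 3 probes gave 1.06, 1.69 and 1.74.

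Among genes with a regular symbol, those with the smallest p and lower at the high dose included parts of the splicing, chromosome and translation machinery. Snrpd3, a protein of the Sm ring of spliceosomal particles, had levels of 2.91, 3.53 and 3.69 (lowest, median, highest) in controls and 2.22, 2.52 and 2.86 at the high dose. The groups did not overlap. The log2 fold change was -0.86 ± 0.19 (SE), with a limma adjusted p of 0.641. A further probe gave -0.84 and another -0.18, so the probes do not all show the same size. Snrpd3 stood apart in its list of 20 small nuclear ribonucleoprotein genes: 9 were higher, 11 lower, the median was -0.02, and it was the only member with an unadjusted p under 0.05.

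E2f8, an atypical E2F that represses cell cycle genes, was -0.87 ± 0.20 (SE) lower, from a median of 3.11 in controls to 2.13 at the high dose. It lay below all controls in 5 of 6 mice, and its further probe gave -0.54. Spc25, a subunit of the Ndc80 complex that ties chromosomes to the spindle, had levels of -0.32, 0.28 and 1.44 in controls and -1.42, -0.46 and -0.38 at the high dose. These groups did not overlap, though the lowest control and the highest dosed mouse were only just apart. Spc25 differed by -1.01 ± 0.25 (SE), and within the 4 slides it ran from -1.55 to -0.75. Brap, a ubiquitin ligase, Mreg, a protein of organelle transport, and Btg1, an antiproliferative factor, also did not overlap. They differed by -0.49, -0.47 and -0.42. Smad3, which carries TGF-beta signals to the nucleus, was -0.49 lower on its brightest probe, -0.48 on another and -0.03 on the other.

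The ribosomal protein genes Rpsa (-0.47, measured in 5 high-dose mice) and Rpl29 (-0.45) were in this set. Both have many near-identical copies in the genome, which a probe may not separate. Eef1e1 (-0.45), a part of the aminoacyl-tRNA synthetase complex, and Rpp40 (-0.89), a subunit of RNase P, belong to the same broad machinery. The rest were Tspan33 (-0.56), Lonrf3 (-0.64) and Rnf214 (-0.35). Crem, a modulator of cyclic AMP responses, was -0.41 ± 0.10 (SE) lower on its brightest probe and lower on all 5 of its probes. Crem differed between the doses: high dose minus low dose was -0.62, with a limma adjusted p of 0.0428, in a contrast in which 0.0283% of all genes passed. Of the 37 genes named for smallest p or largest change, 22 had further probes, and 33 of these 34 probes gave the same direction. They read RNA of the same mice, so this bears on the probes and not on the group difference. The exception was a probe of Rnf214, at 0.07. Sizes could differ: further probes gave 0.23 for Zfp324 and 0.14 for Fgfr1op2, smaller than the brightest, and -1.39 for Rpp40, larger.

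Among genes with a regular symbol, the largest average decreases at an unadjusted p under 0.01 included 2 cytochrome P450 genes. Cyp2c23, an epoxygenase of arachidonic acid, had levels of 4.84, 5.46 and 6.07 in controls and 1.63, 3.71 and 5.74 at the high dose. It was below all controls in 5 of 6 mice, and the dosed mice spread more widely than the controls. The log2 fold change was -1.73 ± 0.57 (SE), or -1.32 without high-dose mouse 2, and it ran from -4.02 to 0.85 within slides. Cyp39a1, which hydroxylates an oxysterol on the way to bile acids, was also below all controls in 5 of 6 mice, with levels of 0.61 to 1.53 in controls and -1.12 to 1.14 at the high dose. Its log2 fold change was -1.09 ± 0.34 (SE), or -0.87 without that mouse. Lrp2bp (-1.09) and Crybg3 (-0.95) completed the set. Lrp2bp was well above background on all 6 control arrays and on 3 of 6 high-dose arrays.

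The output genes of the circadian clock included 2 genes without overlap between the groups, Dbp and Tef. Both were higher, as were 0.119% of all genes without overlap, and the list was chosen with earlier results of these data known. Dbp, Tef and Hlf are related activators that bind the D-box sequence in the promoters of rhythmic genes, and Nfil3 is a repressor that binds the same sequence. Dbp had levels of 0.51, 0.23, 0.69, 0.11, 0.75 and 2.03 in control mice 1 to 6, and of 2.66, 2.25, 2.82, 2.72, 2.66 and 2.06 in high-dose mice 1 to 6. All 6 dosed mice were above all controls, but control mouse 6 was close to the lowest of them. The log2 fold change was 1.81 ± 0.45 (SE), or 3.5-fold, with a 95% interval from 0.86 to 2.75, an unadjusted p of 8.32e-04 and a limma adjusted p of 0.641. Within the 4 slides it ran from 1.39 to 2.42, and its sign there was fixed by the lack of overlap. The Dbp probe lies at chr7:45577937-45577996 of build mm8.

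Tef had levels of -0.35, 0.14, -0.20, -0.08, 0.26 and 0.33 in control mice 1 to 6 and of 0.43, 0.89, 0.65, 0.89, 0.88 and 0.80 in high-dose mice 1 to 6. The groups did not overlap. Tef differed by 0.74 ± 0.23 (SE), ran from 0.44 to 0.79 within slides, and was 0.23, 0.46 and 1.59 on the gene's 3 further probes. Nfil3 went the other way, with levels of 3.17 to 3.80 in controls (median 3.44) and 2.80 to 3.42 at the high dose (median 2.98). Its log2 fold change was -0.42 ± 0.15 (SE), and -0.46 on a further probe. Hlf differed by 0.32 with overlapping groups. In 5 of 6 high-dose mice the median of these 4 genes lay above that of every control mouse.

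The core clock list did not shift as a whole: of its 15 measured members 7 were higher and 8 lower, with a median of -0.06. The members higher at an unadjusted p under 0.05 were Per3 (0.85 ± 0.35 SE), Nr1d2 (0.60 ± 0.25), which encodes Rev-erb beta, Cry2 (0.31 ± 0.15) and the kinase gene Csnk1e (0.24 ± 0.09). The genes lower at that p were Cry1 (-0.76 ± 0.26), Bmal1 (symbol Arntl, -0.32 ± 0.11) and Clock (-0.31 ± 0.10). The count of 7 of 15 is to be read against 6.98% of all genes, and the list was chosen with earlier results of these data known. Nr1d2 had levels of 0.06, 0.30 and 0.56 in controls and 0.49, 0.96 and 1.16 at the high dose, with 5 of 6 dosed mice above all controls. Bmal1 reached from 1.76 to 2.21 in controls (median 1.84) and from 1.18 to 1.81 at the high dose (median 1.62), with 5 of 6 mice below all controls. Cry1 was lower in 3 of 4 slides and 0.43 higher in the fourth, and its further probe gave -0.52. Per1 (-0.06), Per2 (0.59), Nr1d1 (0.51), which encodes Rev-erb alpha, and Npas2 (-0.54), a partner of Bmal1, had intervals that crossed 0. Per3 is dim, with 3 of 6 control and 5 of 6 high-dose arrays well above background, and its difference was -0.08 when the background was corrected by the normexp method.

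**Figure D2:**
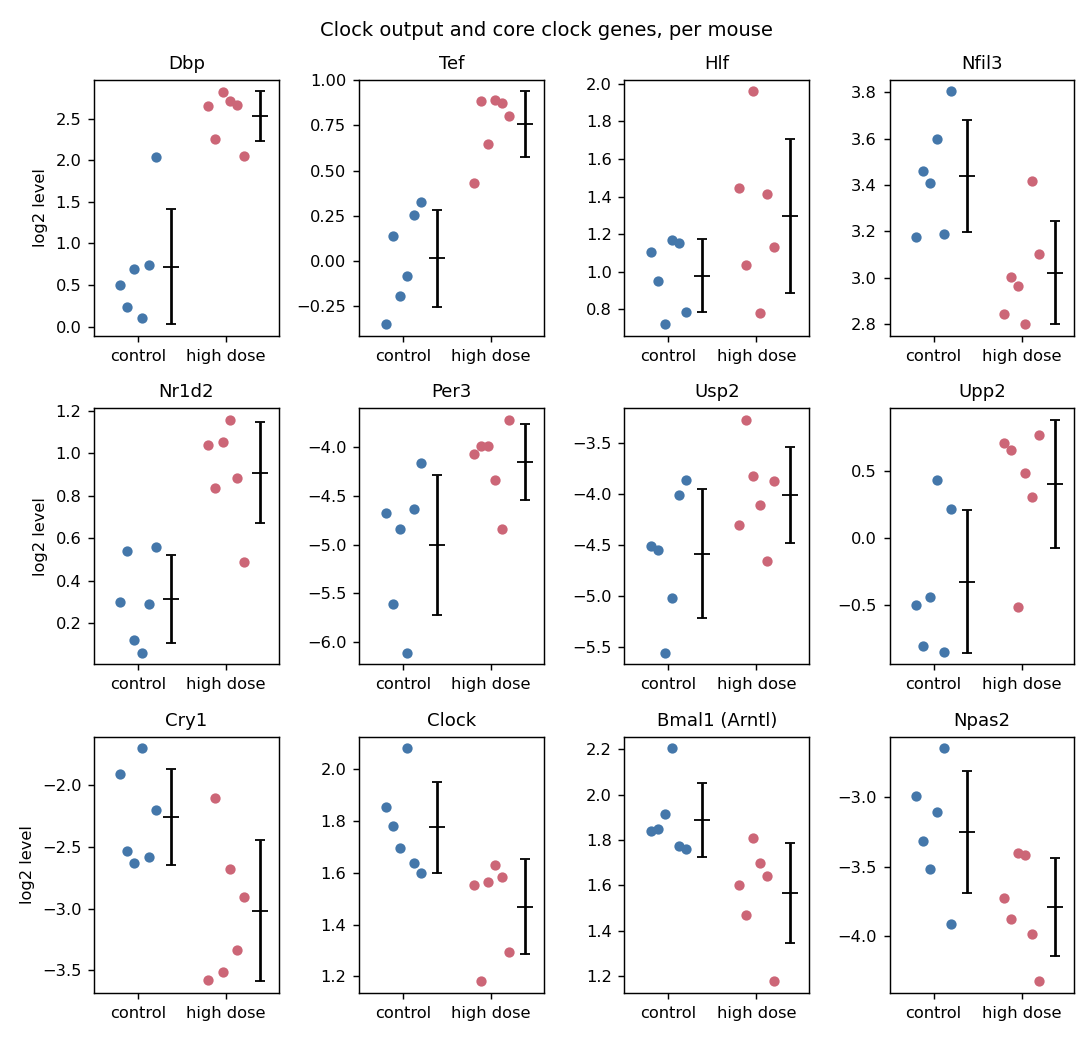
Levels (log2, relative to each array's 75th percentile, y axis, own scale in each panel) of 12 clock genes in each control (blue) and high-dose (red) mouse, with the mean and SD of each group in black. Dbp and Tef do not overlap between the groups, and Cry1, Clock, Bmal1 and Npas2 are lower at the high dose on average.

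Promoter letters of these genes were read from RefSeq (assembly GRCm38.p6), 250 bases before to 50 after each annotated start. The E-box CACGTG, its own reverse complement, which Clock and Bmal1 bind, was found in 7.15% of all promoters of this length. The D-box TTATGTAA or its reverse complement TTACATAA was found in 0.938%. Of 15 clock and output genes with a promoter in the table, 3 held an E-box (Per1, Cry1 and Tef) and 1 a D-box (Per3, 2 copies). Counted by promoter, as those shares are, 4 of 23 held an E-box and 1 of 23 a D-box. No gene held both motifs. Tef and Cry1 are shown because both hold an E-box and stood on opposite sides at the high dose, and Per3 because it holds the site of the factors that Dbp and Tef encode. Capitals mark the motif, and each stretch lies before the start, written 5′ to 3′ on the strand of the gene: Tef at chr15:81802498-81802598 and chr15:81811228-81811328 (plus strand, 2 starts), Cry1 at chr10:85185064-85185164 and Per3 at chr4:151044775-151044915 (both minus strand).
Tef, first start: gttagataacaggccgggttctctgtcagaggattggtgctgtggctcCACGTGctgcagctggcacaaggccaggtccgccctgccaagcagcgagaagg
Tef, other start: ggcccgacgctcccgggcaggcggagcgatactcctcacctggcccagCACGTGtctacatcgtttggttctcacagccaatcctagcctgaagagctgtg
Cry1: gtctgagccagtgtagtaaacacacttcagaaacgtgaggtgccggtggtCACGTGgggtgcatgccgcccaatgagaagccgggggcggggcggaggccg
Per3: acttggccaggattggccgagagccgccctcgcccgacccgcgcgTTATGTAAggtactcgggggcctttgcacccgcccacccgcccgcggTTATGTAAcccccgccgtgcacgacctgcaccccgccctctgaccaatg
The E-box of Tef stands 127 bases before one start and 138 before the other, that of Cry1 60 bases before its start, and the D-boxes of Per3 205 and 158 bases before its start. In the Dbp window neither set of letters was found, which says nothing of sites elsewhere in the gene. Among 13 further genes known to follow the liver clock, 7 were higher and 6 lower, with a median of 0.07, and 5 were higher without high-dose mouse 2, with a median of -0.06. Usp2 (0.58), a deubiquitinase, and Upp2 (0.73), a uridine phosphorylase, were higher at an unadjusted p under 0.05, and Elovl3 (-0.87), a fatty acid elongase, was lower. In either direction 6.98% of all genes were at that p. Usp2 is dim, and its direction turned under normexp (-0.06).

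Genes of antigen presentation on MHC class II were the next group with a shared direction. These molecules show peptides to helper T cells, are made by B cells, dendritic cells and macrophages, and depend on the coactivator Ciita. All 8 measured of 11 listed genes were higher at the high dose, where 49.0% of all genes were, with a median of 0.70. At an unadjusted p under 0.05 there were 3, H2-Ab1, Cd74 and Ciita, where 3.05% of all genes were higher at that p. H2-Ab1, the beta chain of the A molecule, had levels of 0.20, 1.13 and 1.51 in controls and 1.37, 1.88 and 2.63 at the high dose, with 5 of 6 dosed mice above all controls. Its log2 fold change was 0.94 ± 0.25 (SE), or 1.92-fold, with a limma adjusted p of 0.641, and its 3 further probes gave 1.00, 1.13 and 1.16. Within slides it ran from 0.56 to 1.25. The probe lies at chr17:33877309-33877368 of build mm8.

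Ciita reached from -3.49 to -2.66 in controls (median -3.04) and from -2.93 to -2.0 at the high dose (median -2.39), a difference of 0.69 ± 0.21 (SE), which was 0.14 under normexp. Cd74, the invariant chain that escorts class II molecules, differed by 0.74 ± 0.28 (SE), with 5 of 6 mice above all controls. H2-Aa (0.63), the alpha chain, and H2-DMb1 (0.70), which loads peptide, overlapped more. H2-Eb1 (0.82 ± 0.57 SE) varied among the mice of both groups, from -2.94 to 0.06 in controls and from -2.14 to 0.27 at the high dose. The class II list had a median of 0.66 without high-dose mouse 2 and 0.36 under normexp.

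Markers of the cells that carry class II moved with it in part. Of 8 measured B cell markers 7 were higher, with a median of 0.21 (0.38 without high-dose mouse 2) and a summed level of 1.41 to 2.00 in controls and 0.93 to 2.05 at the high dose. That sum is mostly Blnk, at 1.08 to 1.74 in controls and 0.50 to 1.75 at the high dose, the member that was lower (-0.24). Most of the markers are dim, with a median level of -3.99 in controls. The listed B cell markers Pax5, Cr2, Fcer2a, Ighm, Igkc and Tnfrsf13c were not measured. Ms4a1, which encodes CD20, differed by 0.78 ± 0.34 (SE) and Cd79b of the B cell receptor by 0.48, and the direction of Ms4a1 turned under normexp (-0.08). Of 13 Kupffer cell and macrophage markers 12 were higher, with a median of 0.40 and none at an unadjusted p under 0.05, and without high-dose mouse 2 there were 11, with a median of 0.21. Their summed level was 5.04 to 6.66 in controls and 5.56 to 7.39 at the high dose, where the highest value was that of mouse 2 and the next 6.25. Of 6 measured dendritic cell markers 4 were higher, with a median of 0.05, and 3 without high-dose mouse 2, with a median of 0.03. Their summed level was -0.57 to 0.12 in controls and -0.40 to 0.33 at the high dose, where mouse 2 was highest and the next 0.06. Itgax (0.69), which encodes CD11c, was the largest of them, with overlapping groups and -0.05 under normexp. Its further probe went the other way, at -0.10. The part of these cells in the class II difference was not tested.

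Interferon-stimulated genes leaned the same way. Of 24 members 23 were higher, with a median of 0.27, and 4 were so at an unadjusted p under 0.05, where 3.05% of all genes were: Ifit1 (0.77 ± 0.23 SE), Oasl1 (0.72 ± 0.22), Mx1 (0.91 ± 0.34), all antiviral effectors, and Igtp (0.45 ± 0.17), a GTPase induced by interferon gamma. Ifit1 had levels of -2.58, -1.97 and -1.36 in controls and -1.88, -1.08 and -0.63 at the high dose. Oasl1 had levels of -1.09, -0.66 and 0.13 in controls and -0.08, 0.01 and 0.63 at the high dose. For Ifit1 5 of 6 dosed mice, and for Oasl1 2 of 6, lay above all controls. The list's median over members was highest in high-dose mouse 2, at 0.77, and in that group it reached down to -0.10. Without that mouse 20 of 24 members were higher, with a median of 0.25. Mx1 is dim, and its direction turned under normexp (-0.09). MHC class I genes, 8 of 10 higher with a median of 0.11, included the immunoproteasome subunits Psmb9 (0.52) and Psmb10 (0.31) at an unadjusted p under 0.05. T and NK cell markers had a median of 0.10, with 11 of 14 higher and none at that p.

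**Figure D3:**
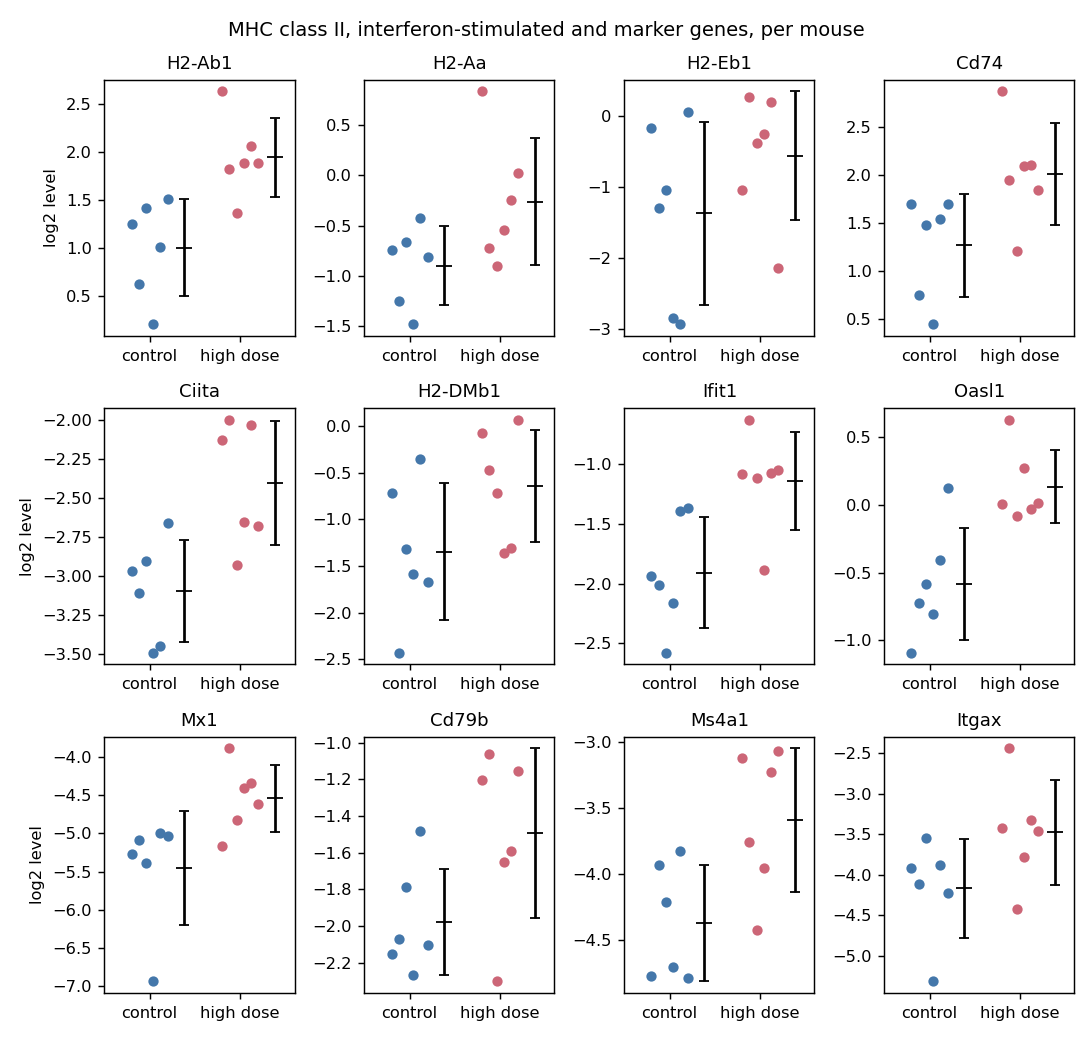
Levels (log2, relative to each array's 75th percentile, y axis, own scale in each panel) of MHC class II, interferon-stimulated, B cell and dendritic cell genes in each control (blue) and high-dose (red) mouse, with the mean and SD of each group in black. H2-Ab1 is above all controls in 5 of 6 dosed mice, and H2-Eb1 spreads widely in both groups.

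High-dose mouse 2 had the highest level of the 12 mice for several neutrophil and acute phase genes, though not for all. The genes named here were chosen after their values were seen. Mpo, the myeloperoxidase of neutrophil granules, stood at 1.78 in this mouse and between -4.46 and -3.21 in the other 11. S100a8 and S100a9, the calprotectin subunits, stood at 2.63 and 5.44, against -4.80 to -2.30 and -0.86 to 1.61. Lcn2, the lipocalin that binds bacterial siderophores, stood at 6.40, against -5.25 to 0.52. Steap4 (4.95, others 0.95 to 1.59) and Orm1 (7.74, others 4.89 to 5.94) are proteins of the acute phase. The neutrophil list had a median over members of 4.91 in this mouse and of -0.49 to 0.53 in the other dosed mice, and the acute phase list one of 1.17 against -0.38 to 0.63. Over the groups, 11 of 16 acute phase genes were higher, with a median of 0.20, and 7 of 16 were so without this mouse, with a median of -0.06. A saturated probe was found for 9 of the 16, among them the 3 members lower at an unadjusted p under 0.05 (Hp, Hpx and Fgg), whose fold changes have only a bound. The 5 measured neutrophil genes had positive group differences (median 0.59), but Mpo, S100a8 and S100a9 were at -0.07, -0.32 and -0.27 without it. Saa1 stood at 7.70 in this mouse and reached 7.89 in high-dose mouse 6, and Saa2 stood at 7.67 and reached 7.85 in control mouse 6. Their relative Saa3 was also high in high-dose mouse 3 (7.32), beside 7.71 in mouse 2 and 2.70 to 5.93 in the rest. Alb, saturated on all 12 arrays, stood at 7.70 in high-dose mouse 2 and 7.88 in mouse 6, near the Saa1 values. So close to the ceiling, the order of the mice may follow from the scaling, which was not tested.

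Genes through which bisphenol A is known to act or to be cleared had small differences. Of 7 measured steroid receptor genes 4 were higher, with a median of 0.05, or -0.08 under normexp, and none at an unadjusted p under 0.05. Without high-dose mouse 2, 6 of 7 were higher, with a median of 0.08. Esr1, the main estrogen receptor of liver, had levels of -1.54, -1.07 and -0.75 in controls and -1.61, -0.85 and 0.42 at the high dose. Its log2 fold change was 0.31, with an interval from -0.33 to 0.95, and 0.08 without high-dose mouse 2. Esrra (-0.01, interval -0.22 to 0.19) and Esrrg (0.07, interval -0.32 to 0.45) encode estrogen-related receptors, the latter a protein that binds bisphenol A. The estrogen-responsive list split evenly, 4 of 8 higher with a median of 0.03 (3 of 8 and -0.09 without high-dose mouse 2). Sult1e1 (0.76, interval -0.17 to 1.69), the estrogen sulfotransferase, was its largest member, on a dim probe whose direction turned under normexp (-0.09).

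Of 20 measured conjugation genes 6 were higher and 14 lower, with a median of -0.13, and the list was lower in all 4 slides. Ugt2b1, the glucuronosyltransferase best known for bisphenol A, had levels of 3.79, 4.41 and 4.83 in controls and 3.35, 4.35 and 4.57 at the high dose. Its log2 fold change was -0.21 (interval -0.61 to 0.19), and -0.04 without high-dose mouse 2. Ugt1a1 (-0.13, interval -0.56 to 0.30) and Sult1a1 (0.19, interval -0.47 to 0.85) also had intervals across 0. Papss2 (0.31), which makes the sulfate donor, was higher at an unadjusted p under 0.05, and Ugt2b34 (-0.24) and Ugt2b38 (-0.32) were lower. Of all genes 3.05% were higher and 3.93% lower at that p. The list's median came to -0.06 without high-dose mouse 2.

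Targets of the xenobiotic receptors CAR and PXR were divided, 11 of 20 higher with a median of 0.03. Cyp3a11, the main PXR target, had levels of 5.52, 6.93 and 7.76 in controls and 5.64, 6.18 and 6.70 at the high dose, a log2 fold change of -0.71 (interval -1.37 to -0.05), while its neighbour Cyp3a25 differed by 0.47. Cyp2b10, the classic CAR target, was dim, with levels of -5.87 to -3.29 in controls and -5.42 to -2.33 at the high dose, and its direction turned under normexp (-0.14). The related Cyp2b9 and Cyp2b13 varied widely among mice of the same group. Cyp2b9 reached from -6.26 to 1.62 in controls and from -6.82 to 2.47 at the high dose, so that a difference of 2.04 ± 1.57 (SE) lay within the spread. The aryl hydrocarbon receptor list had 3 of 6 members higher and a median of 0.03. Cyp1a1 (0.11, interval -1.03 to 1.25), Cyp1a2 (-0.29, interval -0.74 to 0.15) and Nqo1 (0.40, interval -0.10 to 0.89) had intervals across 0.

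The sex-biased genes, which follow the pattern of growth hormone release, are a point at which an estrogenic agent could be seen in a male liver. Of 14 male-biased genes 13 were lower, with a median of -0.20, but 5 of the 14 had a saturated probe, and the median was -0.14 with unsaturated probes and -0.03 with array brightness in the model. Of 7 female-biased genes 4 were higher, with a median of 0.26 and a range from -1.04 to 2.07. Of 14 genes of the growth hormone and IGF1 axis 13 were lower, with a median of -0.16 and none at an unadjusted p under 0.05, and 10 were lower without high-dose mouse 2, with a median of -0.07. NRF2 targets, which answer oxidative stress, had 14 of 20 members lower and a median of -0.12, against 11 of 20 and -0.06 without that mouse. Among them Ephx1, microsomal epoxide hydrolase, was -0.90 ± 0.26 (SE) lower, with levels of 4.11, 4.52 and 4.71 in controls and 2.70, 3.61 and 4.55 at the high dose, and Gclc, of glutathione synthesis, differed by -0.43.

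**Figure D4:**
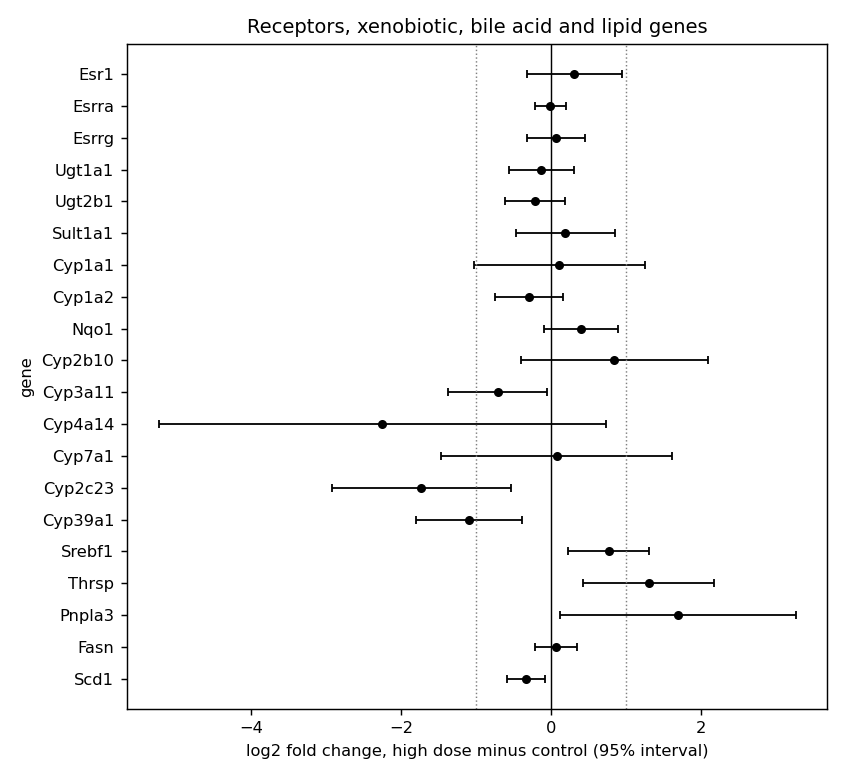
Log2 fold change (x axis, high dose minus control) with its 95% interval for receptor, xenobiotic, bile acid and lipid genes (y axis). Dotted lines mark -1 and 1. The interval of Esrra lies between -0.22 and 0.19, and that of Cyp4a14 reaches from -5.23 to 0.73.

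Lipid metabolism was read from several lists, whose differences from each other were not tested. All 24 targets of PPARA, the receptor that switches on fat oxidation, were lower, where 51.0% of all genes were, with a median of -0.33. Of these, 4 had an unadjusted p under 0.05, where 3.93% of all genes were lower at that p, among them Fabp1, on a probe saturated in most mice, Creb3l3 and Acot1. Without high-dose mouse 2, 21 of the 24 were lower and the median was -0.17, and under normexp it was -0.12. Acot1, an acyl-CoA thioesterase, had levels of 2.61, 3.08 and 4.55 in controls and 0.17, 2.45 and 3.44 at the high dose. Mouse 2 gave the lowest of these values, and the log2 fold change of -1.12 was -0.73 without it. Cyp4a14, an omega hydroxylase, reached from -0.03 to 6.01 in controls and from -2.63 to 5.35 at the high dose. Its log2 fold change of -2.25 was -1.46 without mouse 2.

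Of 20 genes of fatty acid synthesis 10 were higher and 10 lower, with a median of 0.01, and without high-dose mouse 2 there were 14 higher, with a median of 0.10. Mlxipl, which encodes the glucose-responsive regulator ChREBP and was chosen after its values were seen, differed by -0.05 (interval -0.39 to 0.29). Srebf1, the SREBP-1 gene, had levels of 5.47, 5.61 and 6.22 in controls and 5.74, 6.53 and 7.05 at the high dose, a log2 fold change of 0.77 ± 0.25 (SE). Thrsp, the Spot 14 protein of lipogenesis, differed by 1.30 ± 0.41 (SE), and Pnpla3, a lipid droplet protein, by 1.69 ± 0.75 (SE). The Pnpla3 values of dosed mice reached from 0.00 to 4.45, against 0.01 to 1.72 in controls, and 3 of 6 were above all controls. Scd1 (-0.33), the stearoyl-CoA desaturase, and Fasn (0.07), fatty acid synthase, were read from probes that were saturated on some arrays. The further Fasn probe gave 0.68. Cholesterol synthesis genes, 16 of 26 higher with a median of 0.03 (9 of 26 and -0.07 without high-dose mouse 2), had no member at an unadjusted p under 0.05.

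For triglycerides and lipid droplets 7 of 20 genes were higher, with a median of -0.12 (10 of 20 and 0.0038 without high-dose mouse 2), and Plin5 (-0.36), a droplet protein, was lower at that p. Of 18 lipoprotein genes 14 were lower, with a median of -0.20, and 7 had a saturated probe. Mttp, which loads lipid onto nascent lipoproteins and whose probe was not saturated, had levels of 3.02, 3.11 and 3.37 in controls and 2.36, 2.78 and 3.05 at the high dose, a log2 fold change of -0.42 ± 0.12 (SE), or -0.07 under normexp. Bile acid genes had a median of -0.05, with 6 of 18 higher. Cyp7a1, the rate-limiting enzyme of bile acid synthesis, differed by 0.07 with an interval from -1.46 to 1.61. Cyp8b1, which sets the share of cholic acid, differed by -0.90, and by -0.41 without high-dose mouse 2. Slc27a5 (0.26), which activates bile acids, was higher at an unadjusted p under 0.05. Gluconeogenesis and insulin genes (7 of 13 higher, median 0.01) and genes of the urea cycle and amino acid breakdown (13 of 29 higher, median -0.01) had no shared direction.

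Genes of growth and protein synthesis were more often lower. Among the 81 genes for ribosomal proteins 76 lay lower (median -0.15), and 17 were lower at an unadjusted p under 0.05, where 3.93% of all genes were. Rps6 (-0.29) was among them, beside Rpsa and Rpl29. This median was -0.05 with array brightness in the model and -0.0013 under normexp. Brightness itself differed between the groups, by 0.36 on the log2 scale. The 30 genes saturated on all 12 arrays, Alb (-0.31) and Apoa1 (-0.32) among them, all had lower scaled levels (median -0.34). For each the unadjusted p was under 0.05. A saturated probe is at the scanner's ceiling and has only a bound. The scaling subtracts more from that ceiling on a brighter array. The fold changes of these 30 genes follow from that and do not show less RNA at the high dose. For genes on unsaturated probes the part of brightness was not tested further. Of 77 respiratory chain genes 65 were lower, with a median of -0.08. This rested on high-dose mouse 2: without it 46 of 77 were lower, with a median of -0.02, and its own median over members was -0.40, against -0.18 to 0.05 in the other dosed mice. Sdhc (-0.36), a subunit of succinate dehydrogenase, did not overlap between the groups and stood at -0.02 under normexp.

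Of 29 proliferation genes 20 were lower, with a median of -0.20. At an unadjusted p under 0.05 there were 5, all lower, where 3.93% of all genes were: E2f8, Spc25, the replication helicase gene Mcm7 (-0.30), Cdk1 (-0.82), the kinase of mitotic entry, and Cdkn2c (-0.55), a kinase inhibitor. Control mice spread widely over this list, with medians over members from -0.38 to 0.48, against -0.41 to -0.07 in dosed mice. Its median was -0.05 with array brightness in the model. Of 12 heat shock genes 11 were lower, with a median of -0.33, Hsp90ab1 (-0.34) and Hspa4l (-0.34) at that p. Control mouse 4 was the highest for this list, at 0.56, against -0.27 to 0.02 in the other controls. Genes of the endoplasmic reticulum and integrated stress responses were 13 of 17 lower, with a median of -0.08 (16 of 17 and -0.19 without high-dose mouse 2), and their regulator Atf4 (-0.20) was lower at that p.

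**Figure D5:**
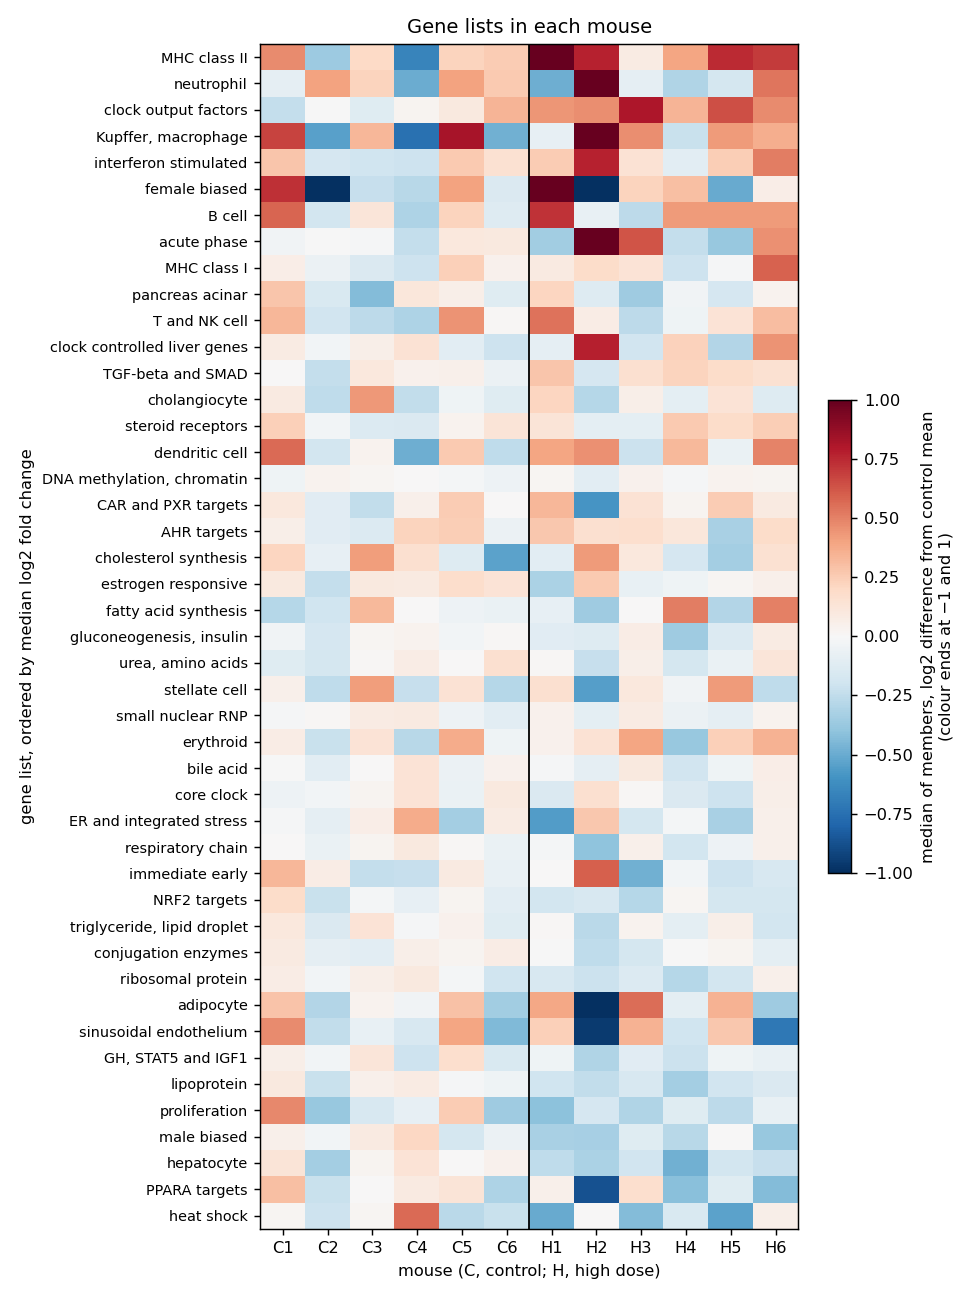
Each row is a gene list and each column a mouse (C1 to C6, control; H1 to H6, high dose). Colour gives the median over the list's members of the log2 difference from the control mean, cut at -1 and 1, and rows are ordered by the median log2 fold change, from MHC class II (0.70) to heat shock (-0.33). High-dose mouse 2 stands out for neutrophil (4.91), acute phase (1.17) and PPARA target genes (-0.87).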

How the data were processed

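The deposited scanner files hold intensity values of 1 array per mouse, background-subtracted by the authors' scanner software, per the file headers (Agilent Feature Extraction 9.5, probes placed on build mm8). The submitters' processing notes name limma, with no version given in the sources used here. The authors' deposited value table, in log2 units with centring unstated, served as an alternative.

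Of 45018 spots, 43379 were not controls. Outlier spots were dropped, replicate spots averaged, and log2 intensities scaled by subtracting each array's 75th percentile. Of 41174 probes, 25418 well above background on at least 6 of 18 arrays were kept, and the brightest of them stood for its gene. Names came from RefSeq (GRCm38.p6) for 23374 probes matched by accession, and otherwise from the files, where names can be old.

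Groups were compared with limma 3.58.1 (R 4.3.3; lmFit and eBayes on all 18 arrays, group as the only term), with Benjamini-Hochberg adjustment over all genes and a threshold of 0.05. The code was tested on simulated data. Brightness was compared by a 2-sided exact permutation test (scipy 1.17.1). The number of arrays limits the precision. Slides are arrays that share a scan start.

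The genes named are the 15 with the smallest p in each direction and a regular symbol, the 5 largest changes in each direction with p under 0.01, up to 6 of smallest p per list, and a fixed set of clock, receptor, metabolic and immune genes. Some genes that this rule names are not reported here. The members and all 45 lists were chosen with earlier results of these data known. A list's value in a mouse is the median over its members of the difference from the control mean. Of 29 alternative settings, 27 were planned; the covariate for brightness and the fit without high-dose mouse 2 were added after the data were seen.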

Additional observations from a re-analysis of the deposited data

Results flagged for a closer look

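In 325 checks of 6 mice, 25 found a highest or lowest mouse far from the rest of its group; chance gives about 1 in 20. High-dose mouse 2 accounted for 10 of the 25: Mpo (1.78), S100a8 (2.63), the neutrophil list (4.91), Cyp8b1 (-0.41), Scd1 (7.11), Ugt2b1 (3.35), Mcm7 (1.70), Spc25 (-1.42), the CAR and PXR list (-0.59) and the TGF-beta list (-0.17). Of the other high-dose mice, mouse 5 stood apart for Cdk1 (-3.64), Nqo1 (-2.41) and the aryl hydrocarbon receptor list (-0.32), and mouse 3 for Upp2 (-0.51).

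Among controls, mouse 6 stood apart for Dbp (2.03) and Tspan33 (3.85), and mouse 3 for Pnpla3 (1.72). Control mouse 4 did so for Bmal1 (symbol Arntl, 2.21), Cyp8b1 (3.35), Mx1 (-6.93) and the heat shock list (0.56). Control mouse 2 did so for Cyp3a25 (4.93) and the estrogen-responsive (-0.24), gluconeogenesis (-0.17) and hepatocyte lists (-0.34).

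Crem differed between the doses by the limma contrast itself: high dose minus low dose was -0.62, with an adjusted p of 0.0428.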

How the results depend on the processing

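No gene passed under any of the 29 alternatives, and the smallest limma adjusted p of a setting ran from 0.0805 (without high-dose mouse 3) to 1 (normexp). The count at an unadjusted p under 0.05 (1233) became 147 with normexp, 1853 with every probe tested alone and 727 with brightness as a covariate. Genes without overlap (58) became 6 with normexp, 90 with no filter on dim probes, 98 with every probe alone and 92 without high-dose mouse 2 on 12 arrays, and 70 to 196 leaving out single mice. Genes past a log2 fold change of 1 (152) became 33 with normexp, 52 in the deposited value table, 58 among probes well above background on all arrays and 263 with brightness. The core clock median (-0.06) was -0.14 with array weights and -0.14 to 0.11 leaving out single mice. The conjugation median was -0.0037 and the ribosomal one -0.0013 with normexp. The male-biased median (-0.20) was -0.035 with quantile normalisation, -0.014 in the value table and -0.025 with brightness. Mouse numbers were not taken to pair the samples: same-numbered mice correlated from -0.031 to 0.350, over 0.1 in 5 of 6 pairs but not in all, and 2 of 6 controls correlated best with their own number. With the replicate block 1287 genes had an unadjusted p under 0.05 and 0 passed. Directions turned as follows, and the cause was not tested. With normexp these were Cyp1a1 (-0.19), Cyp2b10 (-0.14), Esrra (0.16), Esrrg (-0.13), Fasn (-0.12), Hivep3 (-0.077), Itgax (-0.046), Ms4a1 (-0.076), Mx1 (-0.088), Per3 (-0.078), Sult1e1 (-0.088), Ugt1a1 (0.0075) and Usp2 (-0.060). With quantile normalisation they were Cyp1a1 (-0.025) and Esrra (0.020), and in the value table Esrra (0.035) and Esrrg (-0.047). With slide as a fixed block they were Cyp1a1 (-0.30) and Esrrg (-0.13), and with brightness Cyp1a2 (0.010), Esrra (0.076) and Ugt1a1 (0.035). With array weights they were Fasn (-0.0048), S100a8 (-0.13) and S100a9 (-0.14). Without high-dose mouse 2 on 12 arrays they were Cyp7a1 (-0.27), Esrra (0.0061), Mpo (-0.074), S100a8 (-0.32) and S100a9 (-0.27). Leaving out single mice gave Cyp1a1 -0.13 to 0.30, Cyp7a1 -0.31 to 0.64, Esrra -0.082 to 0.045, Esrrg -0.0046 to 0.16, Mpo -0.074 to 1.12, Per1 -0.38 to 0.11, S100a8 -0.32 to 1.17, S100a9 -0.27 to 0.99.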

Other observations

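The remaining lists describe cell types and processes not set out above, as values for high dose minus control. Sinusoidal endothelial markers were lower for 11 of 12 genes, with a median of -0.16 and none at an unadjusted p under 0.05, but without high-dose mouse 2 there were 6 of 12, with a median of 0.01. Over these markers mice 2 and 6 of the high dose stood at -0.95 and -0.72 and the other dosed mice at -0.20 to 0.35, against -0.44 to 0.47 in controls. The scavenger receptor gene Stab2 was the one on the other side, at 0.06. Stellate cell markers were divided, 6 of 12 higher with a median of -0.01, or 9 of 12 and 0.16 without high-dose mouse 2. Among them Hand2, a transcription factor of stellate cells, differed by -0.49 ± 0.17 (SE), with levels of -3.39, -3.20 and -2.94 (lowest, median, highest) in controls and -4.4, -3.66 and -3.13 at the high dose, and its further probe gave -0.20. TGF-beta and SMAD genes were higher for 13 of 20, with a median of 0.07, and the receptor gene Tgfbr2 (0.39) stood opposite to Smad3.

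Markers of tissues that a liver fragment could carry along showed no shared direction: bile duct markers had a median of 0.06, with 4 of 7 higher. Their summed level was 3.21 to 4.46 in controls and 3.40 to 6.52 at the high dose, where the highest value was that of mouse 2 and the next 4.07. The members did not share this: the median over members in mouse 2 was -0.29, the lowest of the high dose. In controls that median ran from -0.26 to 0.43. Pancreatic acinar markers had a median of 0.10, with 3 of 5, fat cell markers -0.15, with 1 of 3, and erythroid markers -0.02, with 1 of 3. Without high-dose mouse 2 the fat cell markers had a median of 0.05, with 2 of 3 higher. Immediate early genes had a median of -0.10, with 4 of 13 higher (-0.18 and 1 of 13 without high-dose mouse 2), and DNA methylation and chromatin genes 0.03, with 7 of 11 higher. Of these 6 lists, the fat cell list held the one member with an unadjusted p under 0.05, Cfd, the adipsin gene, which was higher. It was not well above background on any control array and was so on 3 of 6 high-dose arrays, and its measured means were -6.25 and -5.00.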
